A study of Mus musculus with 9 samples.

Results

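Fads1, Fads2, Elovl2 and Elovl5 encode the desaturases and elongases that build long polyunsaturated fatty acids, and their transcripts were followed in rat liver across 3 groups. They were picked by symbol as 4 of the 37203 gene rows of the count table. No rule on their values was used, but earlier results of these data were known. All 4 were among the 14581 genes with enough counts to be tested. Every group consisted of 3 libraries from Wistar rats, described as male, at the end of an 8-week course. The normal group received olive oil. The fibrosis group was given carbon tetrachloride (CCl4), which liver enzymes convert into a damaging radical, 3 times weekly at 2 mL/kg of a 50% solution in olive oil. The schisandrin B group received CCl4 alone for 4 weeks and then CCl4 together with daily schisandrin B, a lignan of Schisandra fruit, for another 4 weeks. Schisandrin B was used at 25 and 50 mg/kg, but the labels give neither the dose of the 3 sequenced libraries nor whether each library is 1 animal. SDs and p-values therefore measure the spread between libraries, which may be technical.

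Mammals cannot make linoleic and alpha-linolenic acid, but liver converts these dietary fatty acids to arachidonic, eicosapentaenoic and docosahexaenoic acid. Fads2 places the first new double bond and is usually regarded as the step that limits the pathway, Elovl5 then lengthens the chain, Fads1 places the next double bond, and Elovl2 lengthens the products further on the way to docosahexaenoic acid. Liver expresses all 4 genes strongly compared with most tissues, and SREBP-1c and PPAR alpha are the transcription factors best known to act on them.

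The libraries differed in ways that bear on every result. Totals ran from 10320299 to 16255167 counts. Fibrosis replicate 1 stood apart from its group, with a correlation across genes of 0.944 and 0.939 with replicates 2 and 3, against 0.970 to 0.977 for the other pairs of a group. The Y-linked genes Kdm5d and Eif2s3y had 0 counts in the 3 normal libraries, which allows up to 0.203 to 0.258 CPM, and stood at 8.04 ± 2.39 and 10.4 ± 1.16 CPM (SD, n = 3) in fibrosis and 12.3 ± 1.19 and 11.8 ± 1.46 CPM (SD, n = 3) in schisandrin B libraries. Ddx3y, another Y-linked gene, did not share this pattern. It was at 1.48, 1.24 and 0.86 CPM in normal, fibrosis and schisandrin B libraries and was called in no comparison. All 8 listed male-biased liver genes were higher and all 6 female-biased genes lower in both CCl4 groups than in the normal libraries. Differences from the normal libraries can thus hold a difference of sex, and sex and treatment cannot be told apart there. Between fibrosis and schisandrin B libraries no Y-linked gene was called in the edgeR fit (adjusted p 0.0983 for Kdm5d), while 5 of the 8 male-biased genes were higher and 0 lower with schisandrin B, and of the 6 female-biased genes 2 were higher and 1 lower. Over all tested genes, 22.5% were called higher and 24.8% lower there. Against normal, 25.4% were called higher and 22.9% lower in fibrosis, and 5.25% in each direction with schisandrin B. The tissue label held: all 15 hepatocyte markers were detected, with a sum of 97505 to 143670 CPM in fibrosis, 224810 to 248580 in schisandrin B and 265480 to 299860 in normal libraries. In bulk liver RNA, fewer cells of a type and less RNA per cell cannot be told apart.

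All 4 genes were lower in fibrosis than in normal libraries, and the folds were larger for the desaturases than for the elongases. Fads2 fell 26.2-fold and Fads1 22.02-fold, to 3.82% and 4.54% of normal, while Elovl2 fell 4.44-fold and Elovl5 3.13-fold. With schisandrin B, Fads2, Fads1 and Elovl2 rose 10.2-fold, 4.45-fold and 2.67-fold above fibrosis, and Elovl5 showed no called change. None of the 4 reached its normal mean: they stood at 39.1% (Fads2), 20.2% (Fads1), 60.2% (Elovl2, not called) and 41.1% (Elovl5) of normal. The comparisons share libraries, fibrosis against normal with schisandrin B against fibrosis in particular, so their values are given side by side and are not independent.

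**Figure D1:**
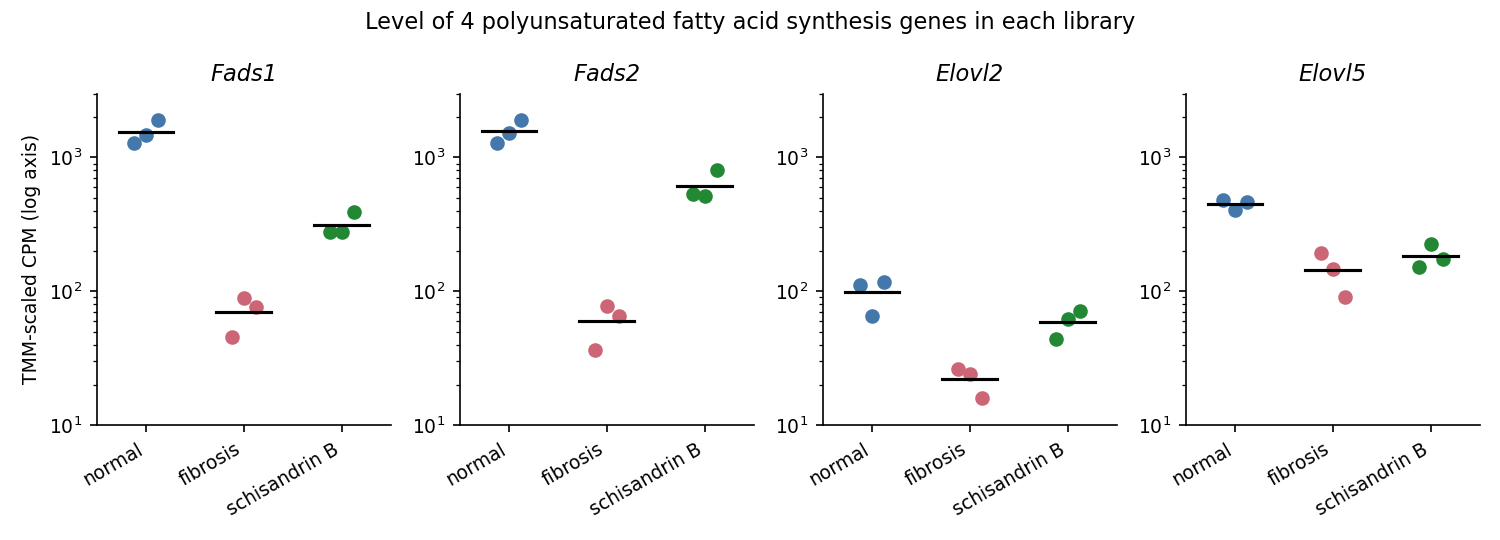
TMM-scaled CPM of Fads1, Fads2, Elovl2 and Elovl5 on a log axis, with 1 point per library and a line at the mean of each group of 3. Normal and fibrosis libraries do not overlap for any of the 4 genes, and schisandrin B libraries lie between them for Fads1 and Fads2 and overlap the fibrosis libraries for Elovl5.

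Fads2, the desaturase of the entry step, stood at 1279, 1509.5 and 1916 CPM in normal replicates 1 to 3. In fibrosis libraries it was at 36.6, 77.7 and 65.5 CPM, with replicate 1 the lowest. In schisandrin B libraries it was at 529, 512 and 801 CPM, so the 3 groups did not overlap. The fall in fibrosis was -4.71 ± 0.35 on the log2 scale (SE, edgeR adjusted p 3.12e-06), and only 65 of the 14581 genes had a more negative value. The rise with schisandrin B was 3.36 ± 0.33 (SE, edgeR adjusted p 1.89e-05), and 169 genes had a larger one. Against normal, schisandrin B libraries were lower by -1.35 ± 0.30 (SE, edgeR adjusted p 0.0163). That last call was lost without normal replicate 3 (-1.19, adjusted p 0.0719), schisandrin B replicate 1 (-1.25, 0.0738) or schisandrin B replicate 2 (-1.24, 0.0765).

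Fads1, the desaturase that forms arachidonic and eicosapentaenoic acid, was at 1277, 1482 and 1904 CPM in normal libraries. It was at 45.7, 89.8 and 76.3 CPM in fibrosis libraries, again with replicate 1 the lowest, and at 275, 278 and 390.1 CPM with schisandrin B. The 3 groups formed separate ranges, as for Fads2, but the schisandrin B libraries sat closer to the fibrosis range. The log2 difference was -4.46 ± 0.32 for fibrosis against normal (SE, edgeR adjusted p 2.54e-06) and 2.15 ± 0.29 for schisandrin B against fibrosis (0.000126). For schisandrin B against normal it was -2.31 ± 0.29 (SE, edgeR adjusted p 0.000578). All 3 calls held in each of the 18 alternatives.

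Elovl2, the elongase of the longest chains, was at 112, 65.4 and 117 CPM in normal libraries, with replicate 2 the lowest. Fibrosis libraries were at 26.4, 23.9 and 16.0 CPM, and schisandrin B libraries at 44.2, 62.1 and 70.7 CPM. Schisandrin B replicate 3 lay above normal replicate 2, so these groups overlapped, while the fibrosis libraries lay below all others. Elovl2 fell by 2.15 ± 0.28 on the log2 scale in fibrosis (SE, edgeR adjusted p 9.37e-05) and rose by 1.42 ± 0.27 with schisandrin B (0.00137). Its difference between schisandrin B and normal, -0.73 ± 0.27, was not called (SE, edgeR adjusted p 0.104), and no alternative called it, with adjusted p from 0.0525 to 0.300.

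Elovl5, the elongase between the desaturase steps, followed another course. It was at 478, 406 and 461 CPM in normal libraries, the narrowest spread of the 4 genes in that group relative to the mean. Fibrosis libraries were at 193, 147 and 90.0 CPM and schisandrin B libraries at 152, 226 and 174 CPM, so fibrosis replicate 1 lay inside the schisandrin B range. Elovl5 fell by 1.65 ± 0.27 on the log2 scale in fibrosis (SE, edgeR adjusted p 0.000469). Schisandrin B against fibrosis differed by 0.36 ± 0.27 without a call (SE, edgeR adjusted p 0.286). Without fibrosis replicate 1, the highest fibrosis library, this difference was 0.63 and called at an adjusted p of 0.0496. Against normal, schisandrin B libraries were lower by -1.28 ± 0.27 (SE, edgeR adjusted p 0.0121), a call lost without schisandrin B replicate 1 (-1.16, adjusted p 0.0599) or replicate 3 (-1.25, 0.0602).

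Set against all tested genes, of which 48.3% were called in either direction, 4 of 4 fell in fibrosis where 22.9% of genes were called lower and 25.4% higher, with a median log2 difference of -3.30 beside 0.03 for all genes. With schisandrin B against fibrosis 3 of 4 rose, where 47.3% of genes were called, 22.5% higher and 24.8% lower, and the median was 1.79 beside -0.03. Against normal, 3 of 4 were lower with schisandrin B, where 10.5% of genes were called and 5.25% were lower, and the median was -1.32 beside 0.00. The groups did not overlap in 4 of 4 genes for fibrosis below normal (26.8% of all genes), in 3 of 4 for schisandrin B above fibrosis (27.8%) and in 3 of 4 for schisandrin B below normal (18.8%). Without fibrosis replicate 1, the falls in fibrosis were -4.45 for Fads2, -4.23 for Fads1, -2.29 for Elovl2 and -1.92 for Elovl5 on the log2 scale, all called.

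**Figure D2:**
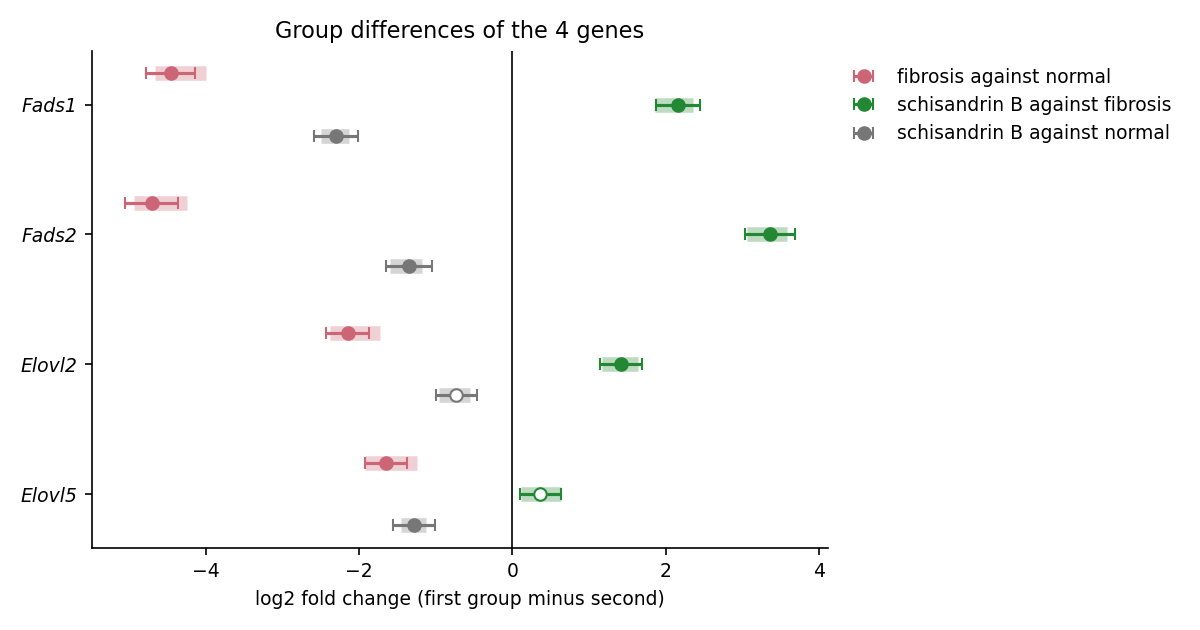
Log2 fold change of each gene in the 3 comparisons, with the standard error as whiskers, the range over the 18 alternatives as a shaded band, and open points where edgeR made no call. Open points are Elovl2 for schisandrin B against normal (-0.73) and Elovl5 for schisandrin B against fibrosis (0.36).

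Counts of 2 genes within a library give a ratio that no library scaling can alter, and the desaturases parted from each other with schisandrin B. In normal replicates 1 to 3, Fads1 had 0.998, 0.982 and 0.994 counts per Fads2 count. In fibrosis libraries the ratio was 1.25, 1.15 and 1.17, and in schisandrin B libraries 0.521, 0.543 and 0.487. The ratio was thus nearly constant within each group and its ranges did not overlap between groups. On the log2 scale it moved by -1.20 from fibrosis to schisandrin B, from 0.25 ± 0.06 to -0.95 ± 0.08 (SD, n = 3), and by -0.94 from normal to schisandrin B. Omission of any library left these shifts at -1.24 to -1.16 and -0.98 to -0.90. The exact permutation p was 0.1 for each, the smallest that 3 libraries against 3 allow, with adjusted values of 0.12 and 0.15, so no ratio in this design could pass a threshold of 0.05.

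The other pairs set a desaturase against an elongase, or the elongases against each other. The log2 ratio of Fads2 to Elovl5 fell from 1.79 ± 0.33 in normal to -1.26 ± 1.01 in fibrosis libraries and stood at 1.73 ± 0.52 with schisandrin B (SD, n = 3). Its schisandrin B and normal values overlapped, with a difference of -0.06 and an exact permutation p of 0.9 (adjusted 0.9). The ratio of Fads1 to Elovl5 went from 1.78 ± 0.32 to -1.01 ± 0.96 and 0.77 ± 0.44 in the same order (SD, n = 3). Between the elongases, the ratio of Elovl2 to Elovl5 was -2.24 ± 0.35 in normal and -2.66 ± 0.19 in fibrosis libraries, ranges that overlapped (exact permutation p 0.3, adjusted 0.3). With schisandrin B it was -1.65 ± 0.30 (SD, n = 3), above all fibrosis libraries and by 0.59 above the normal mean, with an exact permutation p of 0.1 for both (adjusted 0.12 and 0.15).

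**Figure D3:**
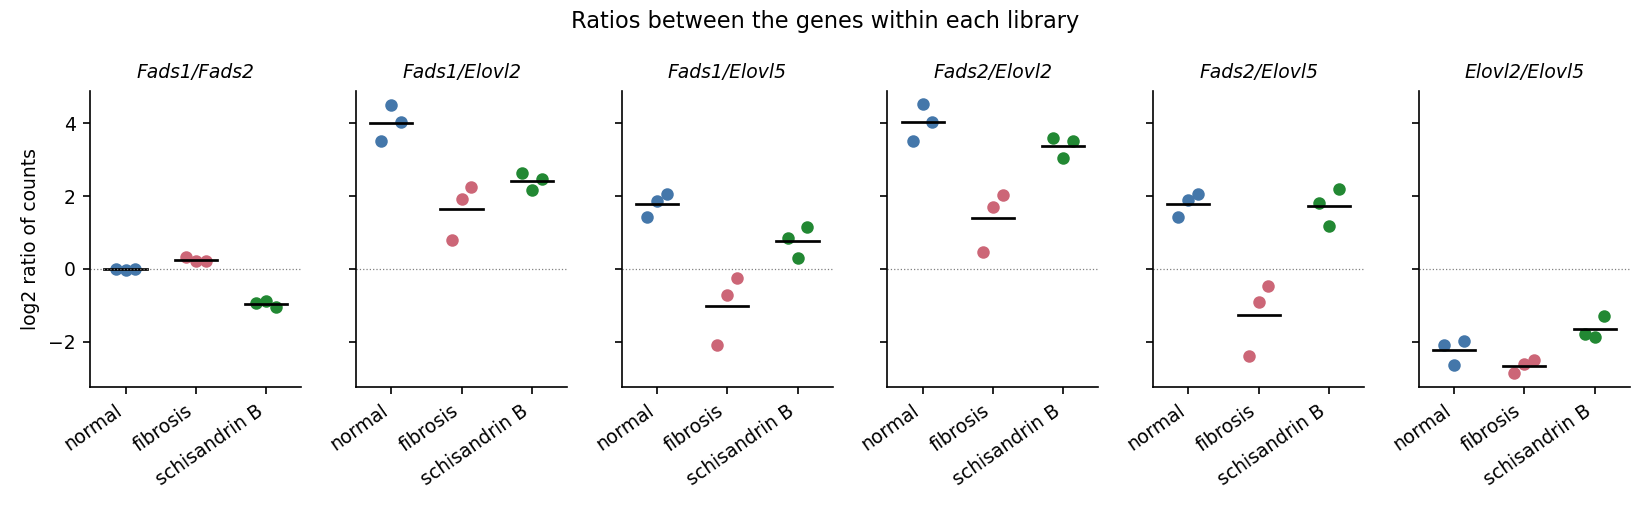
Log2 ratio of raw counts for the 6 pairs of genes, with 1 point per library and a line at each group mean. The ratio of Fads1 to Fads2 is near 0 in normal, 0.25 in fibrosis and -0.95 in schisandrin B libraries, with little spread in any group. Levels of different genes are not compared, since the counts are not divided by gene length.

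The mean level of hepatocyte markers was lower in fibrosis than in both other groups. The mean log2 CPM of 15 hepatocyte markers was 12.57 to 12.67 in normal, 11.71 to 12.09 in fibrosis and 12.43 to 12.48 in schisandrin B libraries, and 9 of the 15 fell and 1 rose in fibrosis, with a median of -0.77. With schisandrin B against fibrosis 7 rose and 1 fell, with a median of 0.55. Between schisandrin B and normal libraries 0 of the 15 were called, with a median of -0.28. Over all tested genes, 22.9% were called lower and 25.4% higher in fibrosis. With schisandrin B, 22.5% were called higher and 24.8% lower against fibrosis, and 10.5% were called in either direction against normal. Taken relative to the mean of the markers, the log2 difference of fibrosis from normal was -3.99 for Fads2, -3.73 for Fads1, -1.37 for Elovl2 and -0.95 for Elovl5. Against fibrosis, schisandrin B libraries were higher by 2.79 for Fads2, 1.59 for Fads1 and 0.82 for Elovl2, while Elovl5 differed by -0.19. The exact permutation p was 0.1 (adjusted 0.12) for these values except 0.7 (adjusted 0.7) for the last. Against normal, schisandrin B libraries differed by -2.14 for Fads1, -1.20 for Fads2, -1.14 for Elovl5 and -0.55 for Elovl2. Here the exact permutation p was 0.1 (adjusted 0.12) except 0.3 (adjusted 0.327) for Elovl2. With albumin alone as the reference the Elovl5 value in fibrosis became 0.10 and the Elovl2 value for schisandrin B against fibrosis -0.12, while Elovl2 in fibrosis was at -0.32.

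Markers of other liver cells were mixed. Over all tested genes, 22.9% were called lower and 25.4% higher in fibrosis. For schisandrin B against fibrosis, the shares were 22.5% higher and 24.8% lower. Stellate cell and fibroblast markers rose in 5 of 12 and fell in 1 in fibrosis. Their sum was 323 to 510.4 CPM in fibrosis, 284 to 435 in normal and 513 to 706 in schisandrin B libraries. Col3a1 was the largest part of these sums, at 202 CPM in normal, 221 in fibrosis and 364 in schisandrin B libraries. Cholangiocyte markers rose in 4 of 7 and fell in 0, and macrophage markers fell in 2 of 9 and rose in 0. The macrophage count was near the share of all genes called lower. Endothelial markers fell in 4 of 8 and rose in 0, and T and NK cell markers fell in 6 of 6. With schisandrin B against fibrosis, 5 stellate cell markers rose and 3 fell, 2 cholangiocyte markers fell and 0 rose, and 3 endothelial markers and 1 T and NK cell marker rose and 0 fell. The part of these cells in the changes of the 4 genes was not tested.

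The other desaturases and elongases did not share one direction. As background for this and the later lists, 22.9% of all tested genes were called lower and 25.4% higher in fibrosis. For schisandrin B against fibrosis, 22.5% were called higher and 24.8% lower. Of 12 listed genes 11 were in the table and 6 were tested, and in fibrosis 2 rose and 2 fell, a count that became 3 and 1 with library totals. Fads6 fell from 193 to 46.1 CPM (-2.07 ± 0.23 on the log2 scale, SE, edgeR adjusted p 3.32e-05) and rose to 242 CPM with schisandrin B (2.39 ± 0.23, 1.89e-05), close to normal, without a call against it (adjusted p 0.383). Fads3, the neighbour of Fads1 and Fads2 in the same gene cluster, was at 4.19, 2.99 and 3.03 CPM in normal, fibrosis and schisandrin B libraries and was not called in any comparison (edgeR adjusted p 0.181, 0.954 and 0.340). Elovl7 had 1 count in normal, 93 in fibrosis and 3 in schisandrin B libraries. Its ratio of fibrosis to normal was 84.6 with a 95% counting interval of 14.8 to 3378, and of fibrosis to schisandrin B 25.6 (8.48 to 126). Elovl6 was not tested, with 46 counts in normal, 11 in fibrosis and 3 in schisandrin B libraries.

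The stearoyl-CoA desaturases, which make monounsaturated fatty acids, had another pattern. Scd1 was at 96.1, 738 and 377 CPM in normal, 524, 686 and 816 CPM in fibrosis and 16.6, 45.9 and 10.4 CPM in schisandrin B libraries. The fibrosis libraries lay within and above the normal range, and the schisandrin B libraries lay below all others. Scd1 showed no called change in fibrosis (0.74 ± 0.69, SE, edgeR adjusted p 0.399) and with schisandrin B fell by 4.79 ± 0.80 on the log2 scale against fibrosis (0.00105). It was also lower than in normal libraries (-4.05 ± 0.78, SE, edgeR adjusted p 0.0117), a call lost without schisandrin B replicate 1 (0.0567), without the filter (0.0647) and in the fit to only the 2 groups (0.0672). Without schisandrin B replicate 2 these differences were -5.64 and -4.90, and without normal replicate 2 the latter was -3.28, all called. The row named Scd was at 22.7, 95.7 and 22.3 CPM in normal and 13.8, 10.97 and 16.1 CPM in fibrosis libraries. It fell in fibrosis (-1.78 ± 0.51, SE, edgeR adjusted p 0.0156) and was at 12.3 CPM with schisandrin B (-0.15 ± 0.51 against fibrosis, 0.836). Without normal replicate 2, the highest library, the fibrosis value was -0.72 (adjusted p 0.0194) and the difference between schisandrin B and normal -0.87 (0.0379). The fibrosis call of Scd was lost with library totals (adjusted p 0.0547), without the filter (0.0812) and without fibrosis replicate 1 (0.0900) or 2 (0.0658). Its call for schisandrin B against normal (edgeR adjusted p 0.0414) was lost without any 1 of the 6 CCl4 libraries (0.0534 to 0.131), with library totals (0.0595), without the filter (0.150), with limma voom (0.0723) and in the fit to only the 2 groups (0.125). Reads can be shared between Scd paralogs, so these values are uncertain.

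Enzymes that complete each round of elongation and carry electrons to the desaturases were in part lower in fibrosis. Of 11 tested genes 7 fell and 0 rose (5 and 2 with library totals), with a median of -0.74, and with schisandrin B 5 rose and 1 fell, with a median of 0.38. Cytochrome b5, Cyb5a, which hands electrons to Fads1 and Fads2, fell from 490 to 136 CPM (-1.84 ± 0.22, SE, edgeR adjusted p 5.05e-05) and rose to 734 CPM with schisandrin B (2.43 ± 0.22, 1.42e-05). Its reductase Cyb5r3 fell from 384 to 85.6 CPM (-2.16 ± 0.21, SE, edgeR adjusted p 1.55e-05) and at 151 CPM remained lower than normal with schisandrin B (-1.35 ± 0.21, 0.00221). The outer mitochondrial form Cyb5b was at 149 CPM in normal, 27.0 in fibrosis and 75.0 in schisandrin B libraries. Its rise from fibrosis to schisandrin B was 1.47 ± 0.31 (SE, edgeR adjusted p 0.00231). The dehydratase Hacd2, listed as Ptplb, fell by 1.82 ± 0.19 in fibrosis (SE, edgeR adjusted p 2.36e-05) and rose by 1.08 ± 0.19 (0.000818). Against normal it was lower with schisandrin B (-0.74 ± 0.19, SE, edgeR adjusted p 0.0265), but not called without normal replicate 3 or any schisandrin B replicate (adjusted p 0.116, 0.103, 0.0540 and 0.114).

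Tecr, the reductase of the last elongation step, was called lower in both CCl4 groups than in normal libraries, as Elovl5 was. It fell from 352 to 148 CPM in fibrosis (-1.25 ± 0.18, SE, edgeR adjusted p 0.00023), stood at 169 CPM with schisandrin B without a call against fibrosis (0.19 ± 0.18, adjusted p 0.426), and was lower than normal there (-1.06 ± 0.18, 0.00439). With library totals its fibrosis value was -0.81, still called (0.00195). Hsd17b12, the ketoacyl reductase, was at 50.0 CPM in normal, 37.5 in fibrosis and 48.7 in schisandrin B libraries. Its fall in fibrosis (-0.41 ± 0.16, SE, edgeR adjusted p 0.0483) was lost in 9 of the 18 alternatives, among them library totals, where it became 0.011. Against fibrosis it differed with schisandrin B by 0.38 ± 0.16 without a call (SE, edgeR adjusted p 0.0696), but was called with upper-quartile factors (0.51, 0.0161) and among genes with a mean of at least 5 CPM (0.43, 0.0281), and against normal by -0.04 ± 0.16 (0.914).

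**Figure D4:**
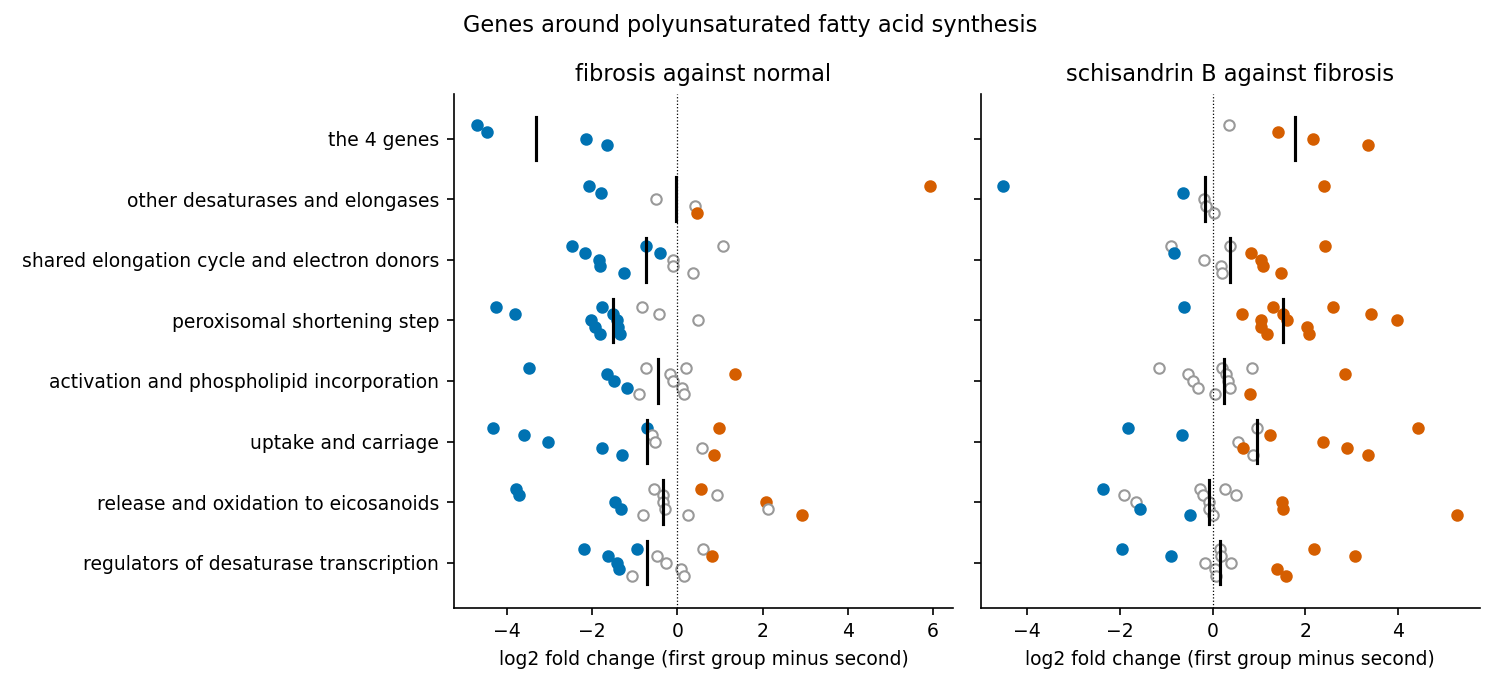
Log2 fold changes of the tested genes of each list for fibrosis against normal (left) and schisandrin B against fibrosis (right), with filled points for genes called higher (orange) or lower (blue), open points for genes not called and a bar at each list's median. Peroxisomal genes lie mostly below 0 on the left (10 of 13 lower) and above 0 on the right (12 of 13 higher), and the median of the 4 genes lies at -3.30 and 1.79.

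The peroxisomal enzymes that shorten the chain in the last step to docosahexaenoic acid, and also break down other long fatty acids, were mostly called. Of 13 genes 10 fell and 0 rose in fibrosis (10 and 1 with library totals), with a median of -1.498. With schisandrin B 12 rose and 1 fell against fibrosis, with a median of 1.52, and against normal 1 was higher and 1 lower. Ehhadh, the bifunctional enzyme, fell from 385 to 27.2 CPM (-3.82 ± 0.32, SE, edgeR adjusted p 6.89e-06) and rose to 430.1 CPM (3.98 ± 0.32, 7.84e-06). Hsd17b4, the enzyme that acts in the docosahexaenoic acid step, fell by 1.498 ± 0.24 (SE, edgeR adjusted p 0.000347) and rose by 1.61 ± 0.24 (0.00025), to 454 CPM beside 422 in normal libraries. Decr2, which reduces double bonds during breakdown, rose with schisandrin B by 3.403 ± 0.28 against fibrosis (SE, edgeR adjusted p 7.84e-06) and was 1.37 ± 0.26 higher than in normal libraries (0.00654). Eci2 fell by 1.93 ± 0.24 (SE, edgeR adjusted p 6.65e-05) and rose by 2.07 ± 0.24 (5.30e-05).

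Of 12 tested genes that activate fatty acids and place them in phospholipids, 4 fell and 1 rose in fibrosis, with a median of -0.46. Over all tested genes 48.3% were called there. With schisandrin B against fibrosis 2 rose and 0 fell (2 and 2 with library totals), where 47.3% of all tested genes were called. Acsl1, the main acyl-CoA synthetase of liver, fell from 2585 to 232 CPM (-3.48 ± 0.34, SE, edgeR adjusted p 1.61e-05) and rose to 1687 CPM (2.86 ± 0.33, 5.64e-05). Acsl5 fell from 595 to 188 CPM (-1.66 ± 0.22, SE, edgeR adjusted p 0.0001) and was at 130.1 CPM with schisandrin B, below normal (-2.19 ± 0.22, 0.000128). Lclat1, an acyltransferase, fell by 1.49 ± 0.22 in fibrosis (SE, edgeR adjusted p 0.00022) and was lower than normal with schisandrin B (-1.11 ± 0.22, 0.0084). Agpat3 rose with schisandrin B by 0.80 ± 0.19 (SE, edgeR adjusted p 0.00413, with 0.52 and 0.0367 for library totals), and Mboat1 was higher than normal by 2.22 ± 0.41 (0.00598). Mboat1 was at 0.826, 2.10 and 3.83 CPM in normal, fibrosis and schisandrin B libraries. Lpcat3, which places arachidonic acid in phospholipids, was at 87.2, 81.7 and 65.4 CPM in normal, fibrosis and schisandrin B libraries and was not called (edgeR adjusted p 0.806 for fibrosis, 0.389 for schisandrin B against fibrosis, 0.402 against normal). Without fibrosis replicate 3 its schisandrin B value was called lower than fibrosis (adjusted p 0.0447).

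Of 11 genes of uptake and carriage 6 fell and 2 rose in fibrosis (5 and 2 with library totals, 6 and 1 with upper-quartile factors), and 6 rose and 2 fell with schisandrin B (5 and 2 with library totals). Fabp1, the liver fatty acid binding protein, fell from 2273 to 189 CPM (-3.59 ± 0.30, SE, edgeR adjusted p 6.80e-06) and rose to 1925 CPM (3.35 ± 0.30, 1.11e-05). Slc27a2, which imports and activates very long chains, fell by 1.76 ± 0.22 (SE, edgeR adjusted p 7.14e-05) and rose by 2.37 ± 0.22 (1.67e-05). Fabp2, the intestinal form, fell from 3.48 to 0.161 CPM, the latter from 7 counts in all (edgeR adjusted p 6.39e-05). Fabp7, a binding protein with a preference for docosahexaenoic acid known mainly from brain, was at 9.28 CPM in normal and 6.11 in fibrosis libraries without a call. With schisandrin B it was at 82.8, 135 and 180.04 CPM, above all others (4.43 ± 0.48 against fibrosis, SE, edgeR adjusted p 6.69e-05, and 3.84 ± 0.47 against normal, 0.000868). Cd36, a fatty acid translocase, was at 80.1 CPM in normal, 9.77 in fibrosis and 18.9 in schisandrin B libraries. It was called lower with schisandrin B than in normal libraries (-2.08 ± 0.46, SE, edgeR adjusted p 0.0206). That call was lost without the filter (0.0778), normal replicate 1 (0.0578) or schisandrin B replicate 1 (0.0506) or 2 (0.0603).

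Genes that release polyunsaturated fatty acids and turn them into eicosanoids were mixed. Of 15 tested genes 3 rose and 4 fell in fibrosis, with a median of -0.33, where 48.3% of all tested genes were called. With schisandrin B against fibrosis 3 rose and 3 fell (3 and 1 with upper-quartile factors), where 47.3% of all tested genes were called. The phospholipase Pla2g16 fell from 127 to 9.18 CPM (-3.78 ± 0.27, SE, edgeR adjusted p 2.66e-06), rose to 26.5 CPM (1.52 ± 0.25, 0.00057) and remained lower than normal (-2.26 ± 0.25, 0.000278). Ptges3, a co-chaperone that also has prostaglandin E synthase activity, rose in fibrosis by 2.09 ± 0.25 (SE, edgeR adjusted p 5.61e-05) and with schisandrin B fell by 2.35 ± 0.25 (3.52e-05). Ptgs1, the constitutive cyclooxygenase, fell in fibrosis by 1.32 ± 0.28 (SE, edgeR adjusted p 0.00217). Ephx2, the epoxide hydrolase of fatty acid epoxides, was at 43.8, 7.87 and 63.8 CPM in schisandrin B and 0.567, 0.908 and 1.41 CPM in fibrosis libraries, a rise of 5.27 ± 1.01 (SE, edgeR adjusted p 0.00262). Normal libraries, at 5.67, 27.7 and 5.75 CPM, overlapped the schisandrin B range, and Ephx2 was not called between these groups. The inducible cyclooxygenase Ptgs2 had too few counts for a test, with 3, 20 and 6 counts in normal, fibrosis and schisandrin B libraries.

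Among 12 regulators of desaturase transcription 5 fell and 1 rose in fibrosis (5 and 2 with library totals, 6 and 0 with upper-quartile factors). With schisandrin B against fibrosis 4 rose and 2 fell. These counts stand beside 48.3% and 47.3% of all tested genes called in the same comparisons. Ppara, the fatty acid sensor PPAR alpha, fell from 128 to 27.8 CPM (-2.20 ± 0.43, SE, edgeR adjusted p 0.00201) and rose to 233 CPM (3.06 ± 0.45, 0.00036). Its difference from normal with schisandrin B, 0.86 ± 0.42, was not called (SE, edgeR adjusted p 0.218) except without fibrosis replicate 1 (0.0119) or in the fit to only the 2 groups (0.00399). Its partner Rxra fell by 1.41 ± 0.17 (SE, edgeR adjusted p 5.22e-05) and rose by 1.58 ± 0.17 (3.27e-05). The oxysterol receptor Nr1h3 fell by 1.37 ± 0.18 (SE, edgeR adjusted p 0.000106) and rose by 1.38 ± 0.18 (0.000113), and the carbohydrate sensor Mlxipl fell by 1.62 ± 0.26 (0.000355) and rose by 2.19 ± 0.26 (6.29e-05).

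Srebf1, which encodes SREBP-1, varied widely within groups and was not called in any comparison. It was at 214, 306 and 358 CPM in normal, 154, 218 and 46.8 CPM in fibrosis and 323, 131 and 95.9 CPM in schisandrin B libraries, with overlap between all groups. The differences were -1.07 ± 0.57 for fibrosis against normal (SE, edgeR adjusted p 0.146), 0.39 ± 0.56 for schisandrin B against fibrosis (0.598) and -0.68 ± 0.56 against normal (0.493). Scap, the escort of SREBP proteins, was at 162 CPM in normal, 83.5 in fibrosis and 94.4 in schisandrin B libraries. Schisandrin B against normal was called lower (-0.78 ± 0.20, SE, edgeR adjusted p 0.0329). That call was lost with library totals (0.0551) and without normal replicate 2 or 3 or any schisandrin B replicate (0.0695 to 0.133).

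Across the 9 libraries the desaturases were the most alike of the 4, with a Pearson correlation of log2 CPM of 0.968, and Fads2 and Elovl5 the least, with 0.753. These correlations are descriptions, since the groups set most of the variation and all points share the same libraries. Among 8796 genes with a mean of at least 5 CPM, those closest to Fads1 were Pbx2 (0.995), Man2a1 (0.990), Ebp (0.990), Nsdhl (0.987) and Mttp (0.986). Closest to Fads2 were Xkr8 (0.997), Ppap2b (0.994), Vkorc1 (0.992), Marc1 (0.992) and Lhpp (0.992). Among those closest to Elovl2 were Pxmp2 (0.989), Atp5b (0.988), Slc17a4 (0.987) and Dll4 (0.982). Elovl5 was followed by Ccdc85c (0.978), Osbpl11 (0.977), Msmo1 (0.973), Lrp5 (0.968) and Fam213a (0.968). No gene was among the 5 closest of more than 1 of the 4, and 309 genes exceeded 0.95 with Fads2, 136 with Fads1, 72 with Elovl2 and 19 with Elovl5.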

How the data were processed

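RNA of rat liver was read on the Ion Proton platform in 9 libraries, assigned to groups by their source names. The authors deposited raw counts, as whole numbers for 37203 gene rows, and all count columns belong to the 9 samples. Mouse is named as the organism and the submitters' processing notes name the mouse build GRCm38, while the strain is Wistar rat and the symbols are rat symbols. Aligner, counter and annotation: not given in the sources used here. Genes are therefore named by symbol, without positions, lengths or sequence, and rat reference sequence was not used here. Totals ran from 10320299 to 16255167 counts per library. Limits that a count of 0 allows (3 counts, 0.176 to 0.287 CPM) and intervals cover counting error only.

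With edgeR 4.0.16 in R 4.3.3, filterByExpr left 14581 genes, TMM factors scaled the libraries, and a robust quasi-likelihood model was fitted to all 9 libraries. A gene was called at an adjusted p (Benjamini-Hochberg, all 14581 genes) under 0.05. Levels are TMM-scaled CPM. Ratios between genes, and levels relative to the mean log2 CPM (prior count 0.5) of 15 hepatocyte markers, were compared with two-sided exact permutation tests, adjusted over 6 pairs per comparison and over 12 values. Likeness is Pearson's r of log2 CPM (prior count 2) among 8796 genes with a mean of at least 5 CPM. The alternatives were other scaling (DESeq2, upper-quartile, library totals), no filter or a stricter one, the tests of DESeq2 1.42.0 and limma 3.58.1 voom, fits to only the 2 groups compared, omission of the 20 most counted genes, and omission of each library. The fit was also run on simulated counts in which few genes changed, equally in both directions. In these data 48.3% of tested genes were called in fibrosis against normal, so that run does not test the scaling used here.

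The 4 genes and the lists were chosen with earlier results of these data known. The text names the 4 genes, up to 3 called genes of lowest adjusted p per list and comparison, and throughout Srebf1, Ppara, Scd, Scd1, Elovl6, Fads3, Hsd17b12, Tecr, Hsd17b4, Lpcat3 and Ptgs2. Some genes that this rule names are not reported here. Scd1 is a row beside Scd and is not in the list counts. Refits of list genes under the alternatives were added after seeing the data.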

Additional observations from a re-analysis of the deposited data

How the results depend on the processing

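Every alternative kept the direction of all 12 differences of the 4 genes. For fibrosis against normal all 4 calls, and for schisandrin B against fibrosis the calls of Fads1, Fads2 and Elovl2, held in each of the 18 alternatives. Library totals moved the median of all genes from 0.03 to 0.46 in fibrosis against normal, from -0.03 to -0.30 in schisandrin B against fibrosis and from 0.00 to 0.16 against normal, and raised the share of called genes that were higher from 52.7% to 74.7%, lowered it from 47.6% to 32.6% and raised it from 50% to 70.3%; the differences of Fads2 became -4.25, 3.06 and -1.19. Upper-quartile factors moved the first 2 medians to -0.07 and 0.10. Leaving out 1 library gave Fads2 against normal -1.59 to -1.19, Elovl5 against normal -1.46 to -1.16 and Elovl5 against fibrosis 0.11 to 0.63. The number of genes called for schisandrin B against normal was 1531, with 702 to 2814 when 1 library was left out and 2951 in the fit to only those 2 groups. Leaving out 1 library moved the difference of the Fads2 to Elovl5 ratio against normal between -0.30 and 0.21, and that of Elovl5 relative to hepatocyte markers for schisandrin B against fibrosis between -0.44 and 0.13; relative to albumin alone the values were 0.10 for Elovl5 in fibrosis and -0.12 for Elovl2 with schisandrin B. The cause was not tested.

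Sign changes among list genes were in values without a call, apart from Hsd17b12 in fibrosis. Library totals gave -0.25 for Fads3 and -0.090 for Tecr (both schisandrin B against fibrosis), 0.011 and 0.12 for Hsd17b12 (fibrosis and schisandrin B against normal), and 0.29 for Lpcat3 (fibrosis against normal), and no filter gave -0.0045 for Fads3. Leaving out 1 library gave -0.13 to 0.19 for Fads3, -0.61 to 0.10 for Lpcat3 and -0.25 to 0.86 for Srebf1 (schisandrin B against fibrosis), -0.52 to 0.20 for Lpcat3 (fibrosis against normal) and -0.10 to 0.024 for Hsd17b12 (schisandrin B against normal). No paired analysis was made, since the labels give no pairing of libraries between groups. The labels also give no replicate numbers, and those used here follow the order of deposit.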
